A study of Homo sapiens with 12 samples.

Results

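The genes described here encode heterogeneous nuclear ribonucleoproteins (hnRNPs), SR proteins and core proteins of the spliceosome. They were chosen by gene symbol alone: HNRNP, SRSF, SNRP, SF3A, SF3B or PRPF at the start of the symbol, or U2AF1, U2AF2, U2SURP, TRA2A or TRA2B. Of 18132 genes measured by probe sets with a single gene symbol, 69 were members, read by 237 probe sets. They fell into 22 hnRNPs, 14 SR and TRA2 proteins, 11 Sm and other snRNP proteins, 9 SF3A and SF3B subunits, 2 genes of the U2AF and U2SURP group and 11 PRPF proteins. U2AF1, SNRPN and HNRNPH2 were read only by probe sets that the annotation assigns to several genes, and were not counted as members.

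RNA was taken from VM-CUB1 and 5637, both established human urothelial carcinoma cell lines. In each line a clone carrying ectopic HOTAIR (VM-CUB1_HOTAIR 20 and 5637_HOTAIR 4) was set against a clone with the empty vector (VM-CUB1_LV and 5637_LV). HOTAIR is a long noncoding RNA transcribed from the HOXC cluster and known for its association with polycomb proteins. All clones came from transfection and puromycin selection and were cultured in DMEM with FCS, so selection was common to both arms. Each group had 3 arrays, each a separate RNA preparation of 1 clone, so a p-value reflects how preparations of the same cells varied, and says nothing of other clones. An effect of HOTAIR and a difference between clones cannot be told apart in this design. The HOTAIR effect below means the difference between the HOTAIR clone and the vector clone of a line. The study asked which genes HOTAIR affects in either line.

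Splicing removes introns from precursor mRNA. Small nuclear ribonucleoproteins (snRNPs) recognise the splice sites: U1 binds the 5′ splice site, U2 with SF3A and SF3B binds the branch point, and the tri-snRNP of U4, U6 and U5 then joins before catalysis. SR proteins mostly bind exonic enhancers and favour the use of nearby splice sites, whereas hnRNPs coat the nascent transcript and often counteract them. Many of these proteins control the splicing of their own mRNAs, and their levels are known to shape exon choice in tumour cells.

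The deposited values were log2 intensities centred for each probe set on its median over the 6 arrays of a line. They show how HOTAIR and vector differed inside a line but hold no expression level, so levels of different genes or lines cannot be compared. A gene was the mean of its probe sets, and it was called changed at a Benjamini-Hochberg adjusted p under 0.01 in limma over all 18132 genes. Within groups, pairs of arrays correlated in their centred values at 0.916 to 0.927 in VM-CUB1_HOTAIR 20, 0.896 to 0.927 in VM-CUB1_LV, 0.778 to 0.793 in 5637_HOTAIR 4 and 0.695 to 0.776 in 5637_LV. Centred values cannot show the identity of a line, so 16 measured urothelial and epithelial markers were read only for changes between the arms. Of these, 3 were higher and 9 lower in VM-CUB1_HOTAIR 20, and 4 were higher and 2 lower in 5637_HOTAIR 4. The VM-CUB1 changes were far larger than those of any member: the log2 fold change was -8.88 for KRT19, -8.21 for EPCAM, -7.17 for KRT5, -3.79 for CDH1 and -3.20 for ELF3, against 3.04 for GATA3. In 5637 the same genes had -0.19, -0.21, 0.84, 1.04, 0.00 and -0.26, with KRT5 and CDH1 called higher and GATA3 lower. The part of these marker changes in those of the members was not tested. Of 18 markers of blood, stromal, muscle, neural and liver cells, 2 were lower (CD68 and CD14) and 0 higher in VM-CUB1_HOTAIR 20. In 5637_HOTAIR 4, 4 of them were higher (CD14, ACTA2, PECAM1 and MBP) and 0 lower. Whether any defining marker is absent could not be read from centred values.

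Upstream sequences are shown for 5 members whose changes were among the largest or ran in opposite directions between the lines, picked with these values known. They are the 120 bases before the annotated start (RefSeq, GRCh38.p14), 5′ to 3′ on the strand of the gene. Capitals mark the ETS core CCGGAAG, the NF-Y box CCAAT and the E-box CACGTG on either strand. The windows were chr2:177212674-177212793 (plus strand) for HNRNPA3, chr20:63981012-63981131 (plus) for PRPF6, chr3:143001450-143001569 (plus) for U2SURP, chr14:69767022-69767141 (plus) for SRSF5 and chr22:30356895-30357014 (minus) for SF3A1.
HNRNPA3: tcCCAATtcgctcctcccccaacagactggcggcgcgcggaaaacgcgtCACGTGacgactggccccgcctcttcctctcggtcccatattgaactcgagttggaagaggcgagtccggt
PRPF6: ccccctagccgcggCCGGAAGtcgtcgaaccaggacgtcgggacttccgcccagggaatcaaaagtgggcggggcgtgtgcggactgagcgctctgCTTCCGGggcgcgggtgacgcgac
U2SURP: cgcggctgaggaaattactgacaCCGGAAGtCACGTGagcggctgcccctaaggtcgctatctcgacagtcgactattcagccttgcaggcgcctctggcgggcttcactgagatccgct
SRSF5: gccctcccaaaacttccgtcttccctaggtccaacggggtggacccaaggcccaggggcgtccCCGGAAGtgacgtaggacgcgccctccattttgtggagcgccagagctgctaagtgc
SF3A1: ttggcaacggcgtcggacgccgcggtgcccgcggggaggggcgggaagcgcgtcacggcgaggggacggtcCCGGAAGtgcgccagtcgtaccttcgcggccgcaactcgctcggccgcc

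In VM-CUB1 the members changed in both directions, at shares near those of all genes. In 5637 nearly all called members were lower with HOTAIR. In VM-CUB1_HOTAIR 20, 14 of 69 members were called higher, 18 lower and 37 were not called. Over all genes, 21.1% were called higher and 20.5% lower in that line, 41.6% in total, and among the members these shares were 20.3%, 26.1% and 46.4%. In 5637_HOTAIR 4, 3 members were higher (HNRNPH3, HNRNPUL1 and SNRPF), 27 were lower and 39 were not called. There, 14.7% of all genes were called higher and 15.2% lower, 29.9% in total, against 4.35%, 39.1% and 43.5% of the members. The median log2 fold change of the members was -0.0072 in VM-CUB1, beside -0.0290 for all genes, and -0.1516 in 5637, beside -0.0385 for all genes. In 5637, 55 of 69 members had a negative value, beside 10567 of all 18132 genes.

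**Figure D1:**
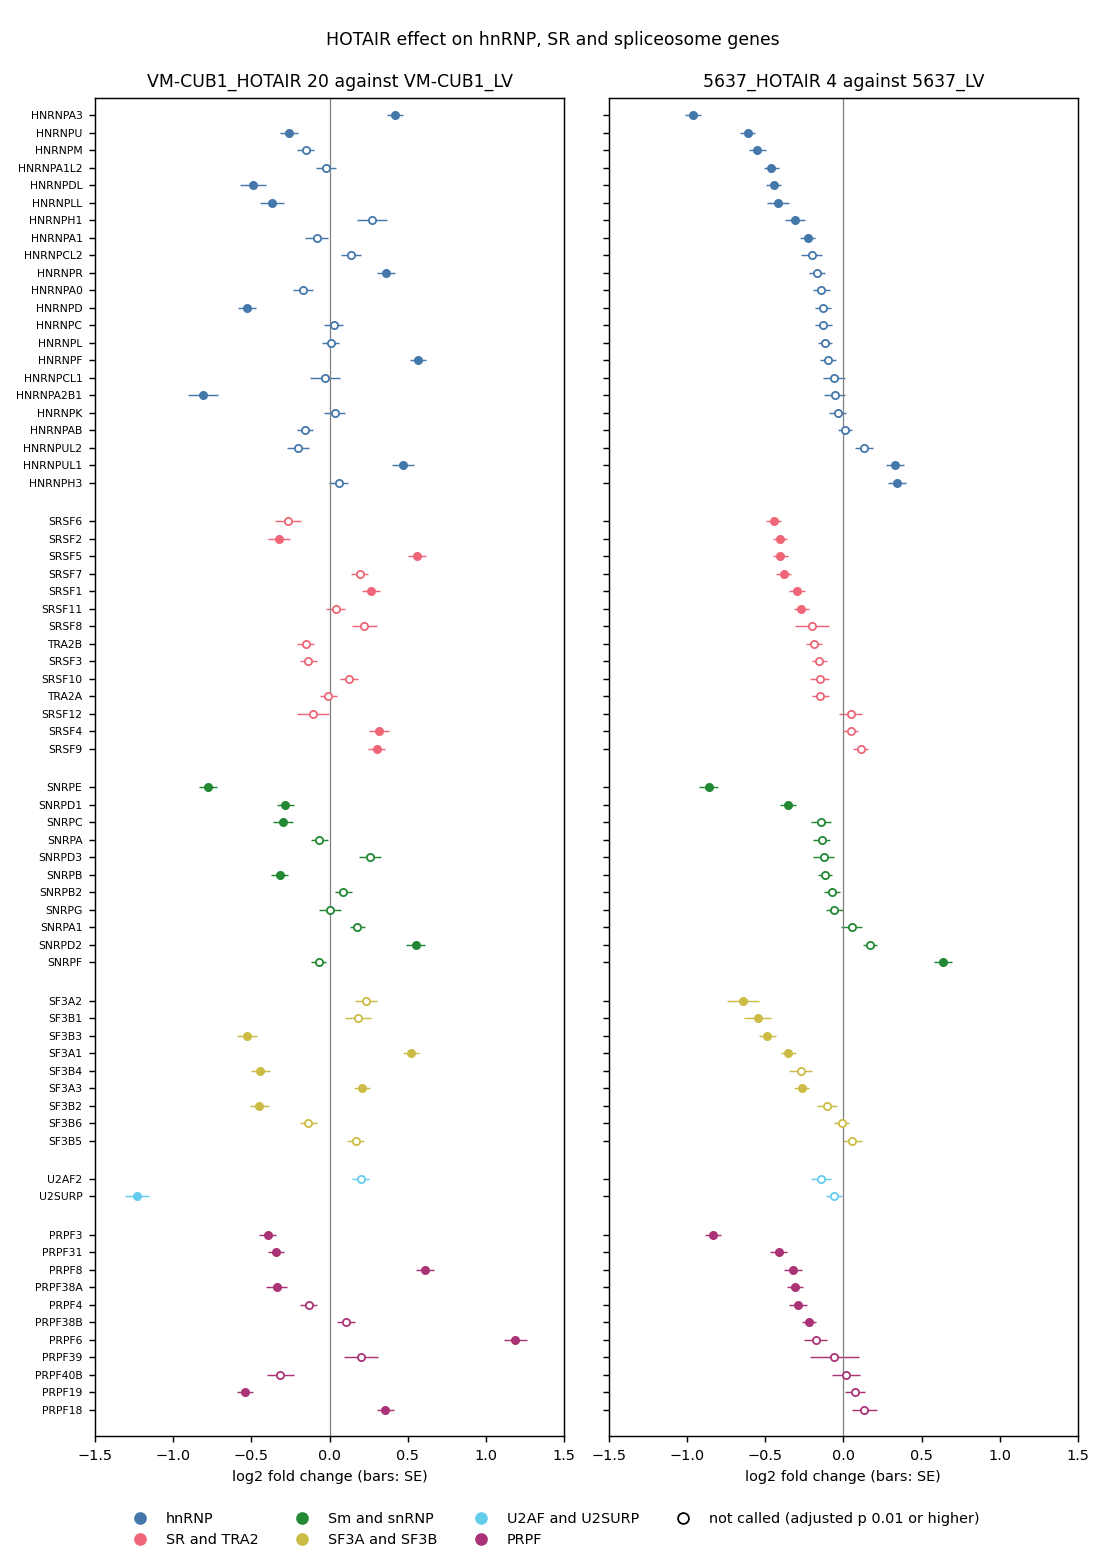
Log2 fold change (HOTAIR against vector) of all 69 members in VM-CUB1 (left) and 5637 (right), ordered by class and by the 5637 value, with bars for the SE and filled points for called genes. Filled points lie on both sides of 0 in VM-CUB1 (14 higher, 18 lower), and mostly left of 0 in 5637 (3 higher, 27 lower).

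Called changes of at least 1.5-fold were seen in VM-CUB1 for PRPF6, U2SURP, HNRNPA2B1, SNRPE and PRPF8. In 5637 they were seen for HNRNPA3, SNRPE, PRPF3, SF3A2, SNRPF and HNRNPU. Changes of at least 2-fold were limited to PRPF6 and U2SURP in VM-CUB1, and 0 members reached that size in 5637. Changes of these sizes were not counted over all genes. Log2 fold changes of all genes ran from -8.88 to 9.98 in VM-CUB1 and from -3.52 to 6.53 in 5637. In VM-CUB1 the lower and upper quartiles were -0.28 and 0.21 for the members, beside -0.21 and 0.19 for all genes. In 5637 these quartiles were -0.35 and -0.06 for the members, beside -0.17 and 0.11 for all genes. The 3 HOTAIR arrays and the 3 vector arrays did not overlap for 54 of 69 members in VM-CUB1 and for 49 of 69 in 5637, beside 58% and 51.3% of all genes.

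By class, lower calls outnumbered higher ones in 5637 in every class with a call, beside 14.7% of all genes higher and 15.2% lower. The hnRNPs had 2 higher and 8 lower of 22, the SR and TRA2 proteins 0 and 6 of 14, the Sm and snRNP proteins 1 and 2 of 11, the SF3 subunits 0 and 5 of 9, and the PRPF proteins 0 and 6 of 11. In VM-CUB1 the same classes had 4 higher and 5 lower, 4 and 1, 1 and 4, 2 and 3, and 3 and 4. Over all genes in VM-CUB1, 21.1% were higher and 20.5% lower. In the same order, 45.5%, 42.9%, 27.3%, 55.6% and 54.5% were called in 5637, beside 29.9% of all genes. In VM-CUB1, 40.9%, 35.7%, 45.5%, 55.6% and 63.6% were called, beside 41.6%. The Sm and snRNP share in 5637 was thus near that of all genes, as was the hnRNP share in VM-CUB1. Class medians of the log2 fold change in 5637 ran from -0.2715 for the SF3 subunits to -0.1002 for U2AF2 and U2SURP, and each was below the median of all genes.

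**Figure D2:**
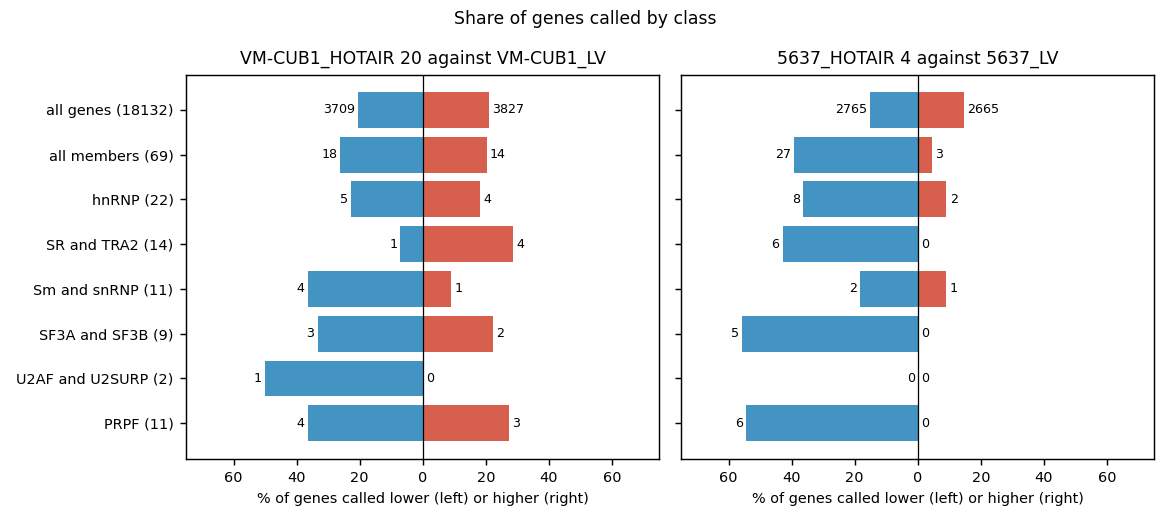
Percent of genes called lower (blue, to the left) and higher (red, to the right) with HOTAIR in each class, beside all members and all 18132 genes, with the number of genes called at the bar ends and the number measured in brackets. In 5637, the SR, SF3 and PRPF classes hold 6, 5 and 6 lower genes and 0 higher ones.

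Among the hnRNPs, HNRNPA3, a member of the A/B family that packages nascent transcripts, changed in opposite directions. In 5637 its HOTAIR arrays read -0.41, -0.47 and -0.52 and its vector arrays 0.54, 0.46 and 0.48, so that both groups were tight and far apart. HNRNPA3 was lower by -0.96 on the log2 scale there (SE 0.053, adjusted p = 4.1e-06, 1.95-fold), and all 4 of its probe sets were called lower. In VM-CUB1 the HOTAIR arrays read 0.26, 0.18 and 0.21 and the vector arrays -0.21, -0.18 and -0.21, again without overlap, with a value of 0.42 for HNRNPA3 (SE 0.052, adjusted p = 1.6e-04). That increase came from 2 of the 4 probe sets (0.92 and 0.66), while the other two had 0.21 and -0.12 and were not called. With only probe sets lacking the _x_at and _s_at endings, which mark possible sharing with other transcripts, the VM-CUB1 value of HNRNPA3 fell short of the threshold (0.21, adjusted p = 0.028).

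HNRNPU, a nuclear scaffold protein that binds chromatin and long noncoding RNAs, was lower in both lines. In 5637 its HOTAIR arrays read -0.30, -0.32 and -0.30 and its vector arrays 0.29, 0.28 and 0.34. The groups lay far apart, at -0.61 on the log2 scale (SE 0.046, adjusted p = 2.1e-05), although single probe sets ranged from -1.31 to -0.22 and 7 of 10 were called. In VM-CUB1 the arrays read -0.11, -0.11 and -0.18 with HOTAIR and 0.17, 0.06 and 0.15 with vector, a smaller gap without overlap (log2 fold change -0.26, SE 0.057, adjusted p = 0.0049). This call was lost when any 1 array other than VM-CUB1_LV replicate 2 was left out, with adjusted p from 0.013 to 0.025 and log2 fold changes from -0.27 to -0.23.

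HNRNPA2B1, which sorts and processes RNAs and is itself known to bind HOTAIR, was called lower in VM-CUB1. The VM-CUB1_HOTAIR 20 arrays read -0.28, -0.38 and -0.53 and the VM-CUB1_LV arrays 0.23, 0.49 and 0.52. No HOTAIR array reached a vector array, and HNRNPA2B1 fell by 0.81 on the log2 scale (SE 0.096, adjusted p = 1.2e-04). In 5637 the arrays of both arms overlapped (-0.01, 0.03 and -0.15 against 0.08, -0.08 and 0.03; log2 fold change -0.05, adjusted p = 0.57), and the difference between the lines was -0.76 (SE 0.125, adjusted p = 1.9e-04). The VM-CUB1 change rested on 1 of its 2 probe sets, which had -1.61, whereas the other had -0.01.

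HNRNPF, which binds G-rich tracts near splice sites, was higher in VM-CUB1. Its HOTAIR arrays read 0.28, 0.28 and 0.27 and its vector arrays -0.34, -0.27 and -0.25, and the log2 fold change was 0.56 (SE 0.053, adjusted p = 2.8e-05). All 7 probe sets of HNRNPF were called higher, between 0.44 and 0.63, which made it one of the most uniform members. HNRNPD (AUF1), which binds AU-rich elements and directs mRNA decay, ran the other way, with -0.28, -0.20 and -0.25 against 0.24, 0.26 and 0.35. The gap was of similar size (log2 fold change -0.53, SE 0.056, adjusted p = 6.0e-05), and all 8 probe sets of HNRNPD were called lower. In 5637 neither gene was called, at -0.10 (adjusted p = 0.16) for HNRNPF and -0.13 (adjusted p = 0.076) for HNRNPD.

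HNRNPM, a splicing regulator known for exon choice in CD44, was called lower in 5637 only. Its 5637_HOTAIR 4 arrays read -0.26, -0.23 and -0.25 and its 5637_LV arrays 0.22, 0.39 and 0.30, without overlap. The log2 fold change of HNRNPM was -0.55 (SE 0.056, adjusted p = 1.1e-04), but 1 probe set with -1.33 stood beside 2 others with -0.14 and -0.18 that were not called. With the median of the probe sets in place of their mean, the value was -0.18 (adjusted p = 0.021).

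The remaining called hnRNPs had smaller changes. HNRNPDL and HNRNPLL, relatives of HNRNPD and HNRNPL, were lower in both lines: HNRNPDL by -0.49 in VM-CUB1 and -0.45 in 5637, HNRNPLL by -0.37 and -0.42. HNRNPUL1, a relative of HNRNPU, was the sole member called higher in both, at 0.47 and 0.33. HNRNPR was higher in VM-CUB1 (0.36), and HNRNPH3 was higher in 5637 (0.34). The HNRNPR value rested on 1 of its 3 probe sets (1.01), while the others had -0.03 and 0.10 and were not called. In 5637, HNRNPA1, a repressor of exon inclusion and the best studied of the A/B proteins, had -0.23 (adjusted p = 0.0065), a value that rested on 1 of its 5 probe sets (-0.73) while the other 4 were not called. The HNRNPA1 call was lost in each fit without 1 array (adjusted p 0.015 to 0.030). In the same line its near copy HNRNPA1L2 had -0.46, and HNRNPH1 had -0.31 (adjusted p = 0.0040), which was lost in 4 of the 6 fits without 1 array (adjusted p 0.011 to 0.018). The 5637 call of HNRNPUL1 was lost without 5637_HOTAIR 4 replicate 2 or 3 (adjusted p = 0.011 for both), and the VM-CUB1 call of HNRNPLL without VM-CUB1_HOTAIR 20 replicate 1 (0.017) or 2 (0.012). HNRNPA1 and HNRNPA1L2 may share signal, since their transcripts are nearly identical. HNRNPC, HNRNPK, HNRNPL and HNRNPAB, which are abundant hnRNPs in most cells, were called in neither line, with values between -0.16 and 0.03. HNRNPA0, HNRNPUL2 and the HNRNPC-like genes HNRNPCL1 and HNRNPCL2 were not called either, and the last 2 may share signal with HNRNPC.

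Among the SR proteins, SRSF5 and SRSF1 rose in VM-CUB1_HOTAIR 20 and fell in 5637_HOTAIR 4. SRSF5, which promotes exon inclusion, read 0.28, 0.23 and 0.24 with HOTAIR and -0.39, -0.28 and -0.27 with vector in VM-CUB1. In 5637 its HOTAIR arrays read -0.14, -0.19 and -0.24 and its vector arrays 0.20, 0.19 and 0.24, so the order of the arms was turned. SRSF5 changed by 0.56 in VM-CUB1 (SE 0.057, adjusted p = 4.7e-05) and by -0.40 in 5637 (SE 0.050, adjusted p = 3.1e-04), and the difference of 0.96 was called (SE 0.071, adjusted p = 9.2e-08). Of its 11 probe sets, 8 were called higher in VM-CUB1 (range over all 0.12 to 1.47) and 7 lower in 5637 (range -0.67 to -0.09), and none was called against the gene.

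SRSF1, an exonic enhancer binding protein with known oncogenic activity, showed the same turn at a smaller size. In VM-CUB1 the HOTAIR arrays read 0.08, 0.09 and 0.13 and the vector arrays -0.09, -0.24 and -0.16 (log2 fold change 0.26, SE 0.059, adjusted p = 0.0051). In 5637 the HOTAIR arrays read -0.11, -0.15 and -0.15 and the vector arrays 0.22, 0.11 and 0.16 (log2 fold change -0.30, SE 0.051, adjusted p = 0.0019). Its arms did not overlap in either line, and the difference between the lines was 0.56 (SE 0.073, adjusted p = 2.3e-05). Of 6 SRSF1 probe sets, the same 3 were called in both lines, at 0.51 to 0.62 in VM-CUB1 and -0.62 to -0.47 in 5637. The others were not called and ran from -0.14 to 0.12 in VM-CUB1 and from -0.11 to 0.03 in 5637. The VM-CUB1 call of SRSF1 was lost without any 1 array other than VM-CUB1_LV replicate 1 (log2 fold change 0.23 to 0.27, adjusted p 0.016 to 0.023), and the 5637 call without 5637_HOTAIR 4 replicate 2 (-0.29, adjusted p = 0.010).

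Other SR proteins moved in 1 line or alike in both. SRSF2, which also acts in transcription elongation, was lower in both lines. In 5637 it read -0.21, -0.19 and -0.18 against 0.22, 0.24 and 0.17 with vector, tight groups that gave -0.40 (SE 0.047, adjusted p = 2.2e-04). In VM-CUB1 the HOTAIR arrays of SRSF2 read -0.08, -0.12 and -0.24 and the vector arrays 0.07, 0.24 and 0.22, closer together at -0.32 (SE 0.070, adjusted p = 0.0045). That call of SRSF2 was lost without VM-CUB1_HOTAIR 20 replicate 2 (adjusted p = 0.012) or 3 (0.020) and without VM-CUB1_LV replicate 2 (0.018) or 3 (0.018), with log2 fold changes from -0.34 to -0.28.

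SRSF6 had the lowest SR value in 5637, with arrays at -0.24, -0.20 and -0.23 under HOTAIR and 0.16, 0.28 and 0.23 under vector (-0.45, SE 0.051, adjusted p = 2.0e-04). In VM-CUB1 the value of SRSF6 was -0.27 and was not called (adjusted p = 0.027). VM-CUB1_LV replicate 1 lay near the HOTAIR arrays there, and without that array the value was -0.36 (adjusted p = 0.0010). Leaving out the vector array nearest to HOTAIR widens the gap by construction, so SRSF6 was still counted as not called. SRSF7, an adaptor of mRNA export, had -0.38 in 5637 (adjusted p = 2.8e-04) and 0.19 in VM-CUB1 (adjusted p = 0.019), and the difference of 0.57 was called. SRSF11 was lower in 5637 (-0.27) and not called in VM-CUB1 (0.04). In 5637, 1 of its 6 probe sets was called (-0.78), and the other 5 ran from -0.33 to -0.03. SRSF4 read 0.09, 0.12 and 0.10 with HOTAIR and -0.09, -0.29 and -0.25 with vector in VM-CUB1, where it was higher without overlap (0.32, SE 0.065, adjusted p = 0.0031). SRSF9 was higher there too (0.30), and neither was called in 5637. The VM-CUB1 call of SRSF4 was lost without any 1 array other than VM-CUB1_LV replicate 1 (adjusted p 0.011 to 0.014). TRA2A and TRA2B, which act with SR proteins on purine-rich enhancers, were called in neither line, and neither were SRSF3, SRSF8, SRSF10 and SRSF12.

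**Figure D3:**
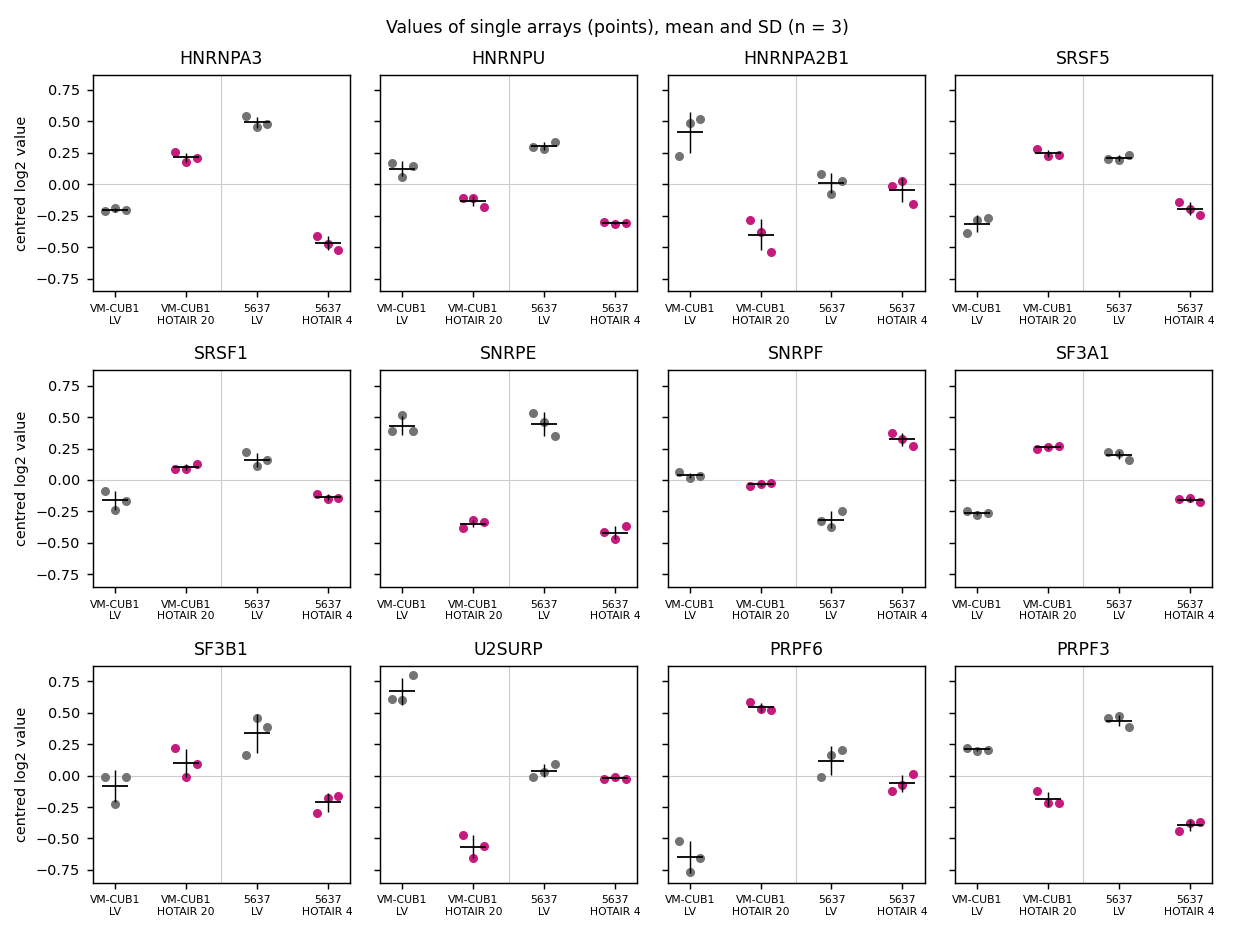
Centred log2 value of each array (points, 3 a group) with the group mean and SD for 12 members, vector in grey and HOTAIR in magenta, VM-CUB1 left and 5637 right in each panel. HNRNPA3, SRSF5, SRSF1 and SF3A1 lie above vector with HOTAIR in VM-CUB1 and below it in 5637, while SNRPE, PRPF3 and HNRNPU lie below vector in both.

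The Sm proteins form the ring around the snRNA of each major snRNP except U6, and their genes did not move as 1 block. SNRPE (SmE) was lower in both lines to a similar extent. Its arrays read -0.38, -0.32 and -0.34 in VM-CUB1_HOTAIR 20 and 0.39, 0.52 and 0.39 in VM-CUB1_LV, and -0.42, -0.47 and -0.37 in 5637_HOTAIR 4 and 0.53, 0.46 and 0.35 in 5637_LV. The log2 fold changes of SNRPE were -0.78 (SE 0.058, adjusted p = 6.8e-06) and -0.86 (SE 0.062, adjusted p = 1.6e-05). Both probe sets of SNRPE were called lower in both lines.

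SNRPF (SmF), the direct neighbour of SmE in the ring, was higher in 5637. Its HOTAIR arrays read 0.37, 0.32 and 0.27 and its vector arrays -0.32, -0.37 and -0.24, with no overlap. SNRPF rose by 0.64 on the log2 scale (SE 0.056, adjusted p = 4.7e-05), and 4 of 5 probe sets were called higher, while the fifth had -0.09. In VM-CUB1 the value was -0.07 (adjusted p = 0.29), and the difference between the lines was -0.71 (SE 0.070, adjusted p = 1.6e-06). SNRPG, the third protein of the SmE, SmF and SmG subcomplex, was called in neither line (0.01 and -0.06).

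SNRPD1 and SNRPD2, which assemble as a pair, differed in VM-CUB1. SNRPD2 read 0.32, 0.24 and 0.23 with HOTAIR against -0.23, -0.28 and -0.37, and was higher by 0.55 (SE 0.060, adjusted p = 7.0e-05, 1 probe set). SNRPD1 read -0.12, -0.13 and -0.14 against 0.10, 0.18 and 0.18, and was lower by -0.28 (SE 0.053, adjusted p = 0.0020), a call lost without VM-CUB1_HOTAIR 20 replicate 3 (-0.28, adjusted p = 0.010). In 5637, SNRPD1 was again lower (-0.13, -0.20 and -0.19 against 0.22, 0.18 and 0.14; -0.36, SE 0.050, adjusted p = 6.0e-04), and SNRPD2 was not called (0.17, adjusted p = 0.015). SNRPB, which encodes SmB and regulates its own splicing, was lower in VM-CUB1, with -0.14, -0.21 and -0.13 against 0.11, 0.18 and 0.18 (-0.32, SE 0.055, adjusted p = 0.0012). Of the proteins specific to single snRNPs, SNRPC of U1 was lower in VM-CUB1 (-0.30), a call lost in 5 of the 6 fits without 1 array (adjusted p 0.010 to 0.022), and SNRPA of U1 and SNRPB2 of U2 were called in neither line. SNRPD3, the partner of SmB in the Sm ring, was not called in either line. SNRPA1 of U2 was not called in VM-CUB1 as a gene (0.18, adjusted p = 0.016), and its 3 probe sets were all called there, 2 higher (0.39 and 0.60) and 1 lower (-0.46).

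The SF3A and SF3B complexes belong to the U2 snRNP and hold the branch point. All 3 SF3A subunits were lower in 5637 and had positive values in VM-CUB1. SF3A1 read -0.15, -0.14 and -0.17 with HOTAIR and 0.22, 0.21 and 0.16 with vector in 5637, and 0.24, 0.26 and 0.27 against -0.25, -0.28 and -0.26 in VM-CUB1. The spread between preparations was small against the gap in both lines, with log2 fold changes for SF3A1 of -0.35 (SE 0.047, adjusted p = 4.7e-04) and 0.52 (SE 0.050, adjusted p = 3.1e-05) and a difference of 0.87 (SE 0.060, adjusted p = 5.0e-08).

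SF3A2 was more variable between preparations: -0.39, -0.36 and -0.15 with HOTAIR and 0.15, 0.51 and 0.35 with vector in 5637 (-0.64, SE 0.101, adjusted p = 0.0012, 1 probe set). In VM-CUB1 SF3A2 had 0.23 and was not called (adjusted p = 0.023), and the difference of 0.88 between the lines was called (adjusted p = 7.9e-05). SF3A3 was higher in VM-CUB1 (0.21, adjusted p = 0.0079) and lower in 5637 (-0.27, adjusted p = 0.0026), with a difference of 0.48 (adjusted p = 2.4e-05). Each SF3A3 call rested on a different probe set. The first had 0.43 in VM-CUB1 and -0.01 in 5637, and the second -0.01 and -0.53. The VM-CUB1 call of SF3A3 was lost in each of the 6 fits without 1 array (adjusted p 0.015 to 0.028), and the 5637 call without 5637_HOTAIR 4 replicate 1 (0.012) or 2 (0.015) or 5637_LV replicate 3 (0.011).

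SF3B1, the subunit that clamps the branch point helix and is often mutated in blood cancers, was lower in 5637. Its arrays read -0.30, -0.18 and -0.16 with HOTAIR and 0.16, 0.46 and 0.39 with vector (-0.55, SE 0.084, adjusted p = 9.8e-04), and all 3 probe sets were called lower. In VM-CUB1 SF3B1 had 0.18 (adjusted p = 0.10), and the difference of 0.73 was called (SE 0.126, adjusted p = 2.5e-04). SF3B3, a scaffold of the complex, was lower in both lines, with -0.32, -0.25 and -0.27 against 0.28, 0.15 and 0.32 in VM-CUB1 (-0.53, SE 0.062, adjusted p = 1.1e-04). In 5637 SF3B3 read -0.32, -0.33 and -0.20 against 0.19, 0.20 and 0.22 (-0.49, SE 0.054, adjusted p = 1.8e-04). Its probe sets were unequal, at -1.27, -0.28 and -0.03 in VM-CUB1 and -0.78, -0.28 and -0.39 in 5637. SF3B2 was called lower in VM-CUB1, at -0.16, -0.30 and -0.30 against 0.23, 0.18 and 0.17 (-0.45, SE 0.061, adjusted p = 2.7e-04), and the difference from 5637 was -0.34 (adjusted p = 0.0045). SF3B4 was lower in VM-CUB1 as well (-0.44, adjusted p = 2.6e-04), whereas the small subunits SF3B5 and SF3B6 were called in neither line.

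U2SURP, an SR-related protein associated with the U2 snRNP, had the largest fall of all members in VM-CUB1. Its HOTAIR arrays read -0.47, -0.66 and -0.56 and its vector arrays 0.61, 0.60 and 0.79. The groups were separated by more than 1 log2 unit, and U2SURP was lower by -1.23 (SE 0.076, adjusted p = 1.9e-06, 2.35-fold), with all 3 probe sets between -1.37 and -1.15. In 5637 the arrays of U2SURP all lay close to 0, at -0.03, -0.01 and -0.03 against -0.01, 0.03 and 0.09 (log2 fold change -0.06, adjusted p = 0.40), and the difference of -1.17 was called (SE 0.091, adjusted p = 1.5e-07). U2AF2, which binds the polypyrimidine tract, was called in neither line (0.20 and -0.14), although the difference of 0.34 was called (adjusted p = 0.0031).

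The PRPF genes held the largest rise. PRPF6, which bridges U5 and U4/U6 within the tri-snRNP, read 0.58, 0.53 and 0.52 in VM-CUB1_HOTAIR 20 and -0.52, -0.77 and -0.65 in VM-CUB1_LV. PRPF6 was higher by 1.19 (SE 0.072, adjusted p = 1.8e-06, 2.28-fold), measured by 1 probe set. In 5637 its arms overlapped (-0.12, -0.08 and 0.01 against -0.01, 0.16 and 0.20; -0.18, adjusted p = 0.080), and the difference of 1.37 was called (SE 0.104, adjusted p = 1.3e-07).

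PRPF8, the U5 protein at the catalytic centre of the spliceosome, turned between the lines. It read 0.34, 0.28 and 0.27 against -0.27, -0.39 and -0.29 in VM-CUB1 (0.61, SE 0.057, adjusted p = 2.8e-05). In 5637 it read -0.25, -0.17 and -0.11 against 0.10, 0.20 and 0.14 (-0.32, SE 0.057, adjusted p = 0.0023), a call lost without 5637_HOTAIR 4 replicate 1 (-0.28, adjusted p = 0.011). The difference of 0.93 was called (SE 0.078, adjusted p = 3.1e-07).

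The U4/U6 proteins PRPF3 and PRPF31, which like PRPF6 and PRPF8 are mutated in inherited retinitis pigmentosa, were lower in both lines. PRPF3 read -0.44, -0.38 and -0.37 against 0.45, 0.47 and 0.38 in 5637 (-0.83, SE 0.051, adjusted p = 7.1e-06) and -0.12, -0.22 and -0.22 against 0.22, 0.20 and 0.21 in VM-CUB1 (-0.40, SE 0.054, adjusted p = 3.0e-04). Its fall was larger in 5637, with a difference of 0.44 between the lines (SE 0.069, adjusted p = 1.2e-04). PRPF31 read -0.16, -0.20 and -0.19 against 0.18, 0.31 and 0.21 in 5637 (-0.41, SE 0.053, adjusted p = 3.8e-04) and -0.21, -0.17 and -0.15 against 0.13, 0.17 and 0.19 in VM-CUB1 (-0.34, SE 0.052, adjusted p = 5.5e-04), and its 3 probe sets were lower in both. PRPF4, their partner in U4/U6, had -0.29 in 5637 (adjusted p = 0.0045) and -0.13 in VM-CUB1 (adjusted p = 0.076), and the difference of 0.15 was not called (adjusted p = 0.12). The 5637 call of PRPF4 was lost in 5 of the 6 fits without 1 array (adjusted p 0.012 to 0.021) and kept without 5637_LV replicate 2.

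PRPF19, the ubiquitin ligase of the Prp19 complex, was lower in VM-CUB1, with -0.33, -0.24 and -0.28 against 0.27, 0.28 and 0.24 (-0.54, SE 0.053, adjusted p = 3.7e-05). In 5637 PRPF19 had 0.07 (adjusted p = 0.40), and the difference was -0.62 (adjusted p = 2.2e-05). PRPF18, a factor of the second catalytic step, was higher in VM-CUB1 (0.36), and PRPF38A was lower in both lines (-0.34 and -0.31). Both PRPF38A calls rested on 1 of its 2 probe sets (-0.72 and -0.56), while the other had 0.04 and -0.05 and was not called. PRPF38B was lower in 5637 (-0.22), with 1 of its 3 probe sets called (-0.44) and the others at -0.11 and -0.10. PRPF39 and PRPF40B, relatives of yeast U1 proteins, were called in neither line.

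By the interaction test, the HOTAIR effect, clone against clone, was unequal in the lines for 31 of 69 members. This was near the share of all genes, 42%. The effect was higher in VM-CUB1 for 24 of these members and lower for 7. This split was not counted over all genes, so it is not read as a trait of the members. Calls in opposite directions were made for 6 members (HNRNPA3, PRPF8, SF3A1, SF3A3, SRSF1 and SRSF5), beside 8.26% of all genes. Those of SF3A3 rested on a different probe set in each line. All 6 rose in VM-CUB1 and fell in 5637, and 0 members had the reverse pattern. Over all genes the opposite calls were nearly even, with 741 in the first direction and 756 in the reverse. Calls of the same direction were made for 10 members lower in both lines and 1 higher in both, beside 5.05% and 5.56% of all genes. Spearman's rho between the fold changes of the lines was 0.131 over the 69 members and 0.060 over all genes, as a description across genes, which are not independent. The lines share no arrays.

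**Figure D4:**
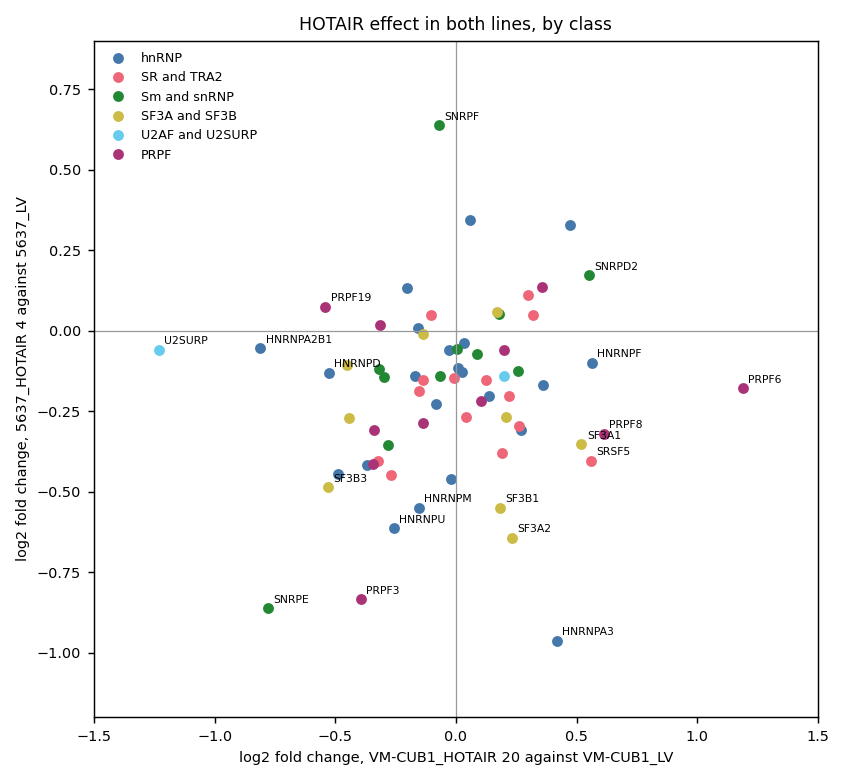
Log2 fold change of each member in VM-CUB1 (horizontal) against 5637 (vertical), coloured by class, with names where either value exceeds 0.5 in size. The lower right quadrant holds the 6 genes with opposite calls, and SNRPE and PRPF3 lie lowest among the genes that were lower in both.

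The 10 members lower in both lines were HNRNPDL, HNRNPLL, HNRNPU, PRPF3, PRPF31, PRPF38A, SF3B3, SNRPD1, SNRPE and SRSF2, and so came from 5 classes. SNRPE, PRPF3 and HNRNPU lie on the long arm of chromosome 1. Of 862 measured genes on that arm, 302 (35%) were lower and 51 higher in VM-CUB1, and 258 (29.9%) were lower and 50 higher in 5637. On the short arm, 13.6% and 12.8% of 955 genes were lower. The arm was examined after its genes had been seen among the members, and its part in their lower values was not tested.

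Probe sets of the same gene were mostly called in the same direction or not at all. Of 237 member probe sets, 96 were called in VM-CUB1 (46 higher, 50 lower, 40.5%), beside 36.6% of all 49293 probe sets. In 5637, 74 were called (9 higher, 65 lower, 31.2%), beside 24.3% of all. Of the 53 members with several probe sets, SNRPA1 in VM-CUB1 was the single one with calls in both directions. All probe sets were called the same way for 10 genes in VM-CUB1 and 7 in 5637, and only some were called for 27 and 24. For these the gene mean depended on probe sets that read the transcript differently, and the SE of a gene does not cover that spread.

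**Figure D5:**
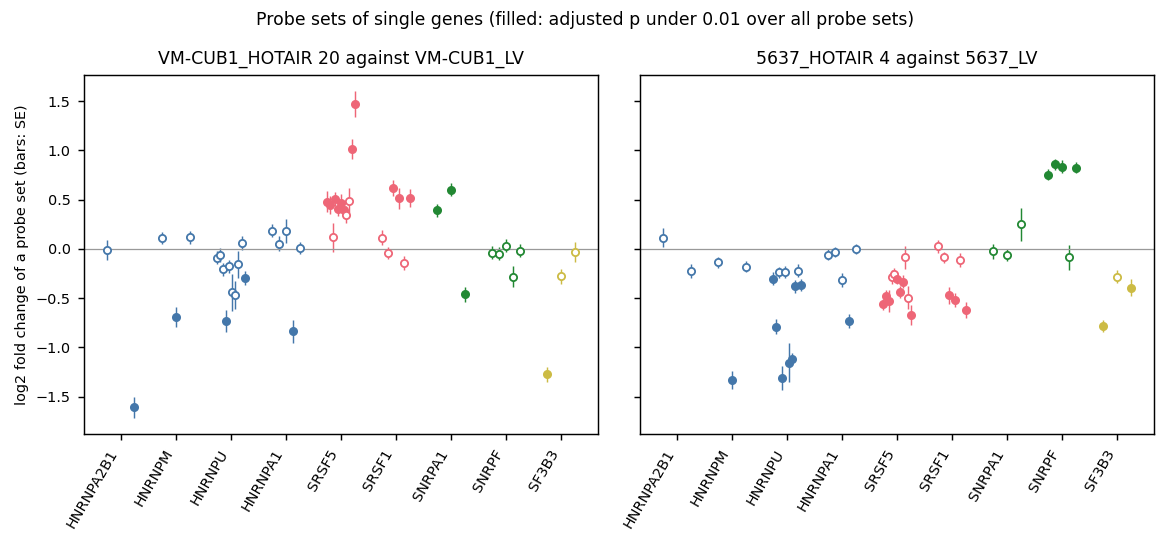
Log2 fold change of single probe sets (points, bars for the SE) of 9 members in VM-CUB1 (left) and 5637 (right), filled where called over all probe sets. HNRNPA2B1, SF3B3 and HNRNPM each hold 1 probe set far below the others, whereas the called probe sets of SRSF5 lie on the same side of 0 within a line.

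The other proteins of the pathway, counted in lists by function, also had more lower than higher calls in 5637, where 14.7% of all genes were called higher and 15.2% lower. In VM-CUB1 these shares were 21.1% and 20.5%. The lists hold 7 to 37 genes, so that single genes move their shares. Of 36 measured snRNP proteins with other symbols, 8 were higher and 12 lower in VM-CUB1, and 1 was higher and 16 lower in 5637 (55.6% and 47.2% called, beside 41.6% and 29.9% of all genes). PUF60, which acts with U2AF at the 3′ splice site, had -1.05 in 5637 and -0.30 in VM-CUB1, and HTATSF1, a U2 snRNP associated factor, was higher in both lines (0.68 in 5637, 0.46 in VM-CUB1). In VM-CUB1 the largest values were those of ZMAT5 of the minor spliceosome (1.14) and RBM10, a regulator of exon skipping (-0.81). Of 37 proteins of the catalytic steps and the Prp19 complex, 9 were higher and 8 lower in VM-CUB1, and 0 higher and 16 lower in 5637 (45.9% and 43.2% called), which in VM-CUB1 was near the share of all genes. XAB2, a helical repeat protein of the Prp19-related complex, was higher by 0.98 in VM-CUB1 and lower by -0.79 in 5637, SNW1 had 0.41 and -0.76, and BUD31 was lower in VM-CUB1 (-1.23).

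The LSm proteins, which bind U6 or act in mRNA decay, had 3 lower of 7 in each line and 0 higher, 42.9% called beside 41.6% of all genes in VM-CUB1 and 29.9% in 5637. The VM-CUB1 share was thus near the background. The called genes included LSM1, lower in both (-0.64 in VM-CUB1, -0.47 in 5637), LSM5, lower in VM-CUB1 (-0.90), and LSM7, lower in 5637 (-0.75). Of 9 exon junction complex genes, 3 were higher and 3 lower in VM-CUB1, among them EIF4A3, its helicase (0.52), and SAP18 (-0.61), and 2 were lower in 5637, RBM8A (-0.62) and ALYREF (-0.22). These were 66.7% and 22.2% called, the latter below the 29.9% of all genes. Of 10 kinases and import factors of SR proteins, 2 were higher and 4 lower in VM-CUB1 and 4 were lower in 5637 (60% and 40% called). SRPK2, which phosphorylates SR proteins in the cytoplasm, was lower in VM-CUB1 by -1.75 (SE 0.051, adjusted p = 2.4e-08). CLK1, a nuclear SR protein kinase, had 0.85 in VM-CUB1 and -0.62 in 5637, both called, and CLK2 was lower in 5637 (-0.72). Of 14 genes for assembly of the Sm ring, 8 were higher and 3 lower in VM-CUB1, and 1 was higher and 6 lower in 5637 (78.6% and 50% called). GEMIN2 was higher in VM-CUB1 (0.82), GEMIN8 lower (-0.70), GEMIN6 lower in 5637 (-0.82) and TGS1, the cap hypermethylase of snRNAs, lower in both (-0.52 in VM-CUB1, -0.76 in 5637).

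Upstream motifs were counted for the 62 members found in the promoter table, which spans 250 bases before to 50 after the start of 27305 genes. The ETS core CCGGAAG was present on either strand in 22 members (35.5%), beside 10.7% of all promoters of the same length. It was found in 7 of 10 Sm and snRNP genes, 6 of 8 SF3 genes and 3 of 21 hnRNPs. The NF-Y box CCAAT was found in 28 members (45.2%, beside 35.7%) and in 14 of 21 hnRNPs. The E-box CACGTG was found in 8 members (12.9%, beside 7.43%), the GC box GGGCGG in 37 (59.7%, beside 44.6%) and the TATA box TATAAA in 6 (9.68%, beside 12%). The motif strings do not contain one another. In the windows shown above, PRPF6 held the ETS core at 106 and 24 bases before the start, U2SURP at 97, SRSF5 at 57 and SF3A1 at 49, and PRPF6 rose in VM-CUB1 while U2SURP fell. The median log2 fold change of members with the ETS core was 0.1317 in VM-CUB1 and -0.1241 in 5637, beside -0.0065 and -0.1619 for the members without it. These matches are descriptions of letters, and binding was not measured.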

How the data were processed

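The authors hybridised 12 RNA preparations to Affymetrix PrimeView arrays, 3 for each of 4 groups, and processed them in GeneSpring GX 12.5 with RMA (submitters' processing notes) and a baseline transformation, for which the methods name the median over all samples. They deposited log2 values for 49395 probe sets. Within each cell line the deposited values of every probe set had median 0 (largest deviation 5.0e-07), so no filter on low values could be applied. Centring removes levels but not differences within a line. For arrays, the number of preparations limits the precision.

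After 102 control probe sets were left out, 44988 carried 1 gene symbol in the platform annotation (18132 genes), 1832 several and 2473 none. No symbol needed updating, and 27 probe sets kept a symbol without a match in the gene table. The gene was the mean of its probe sets. The pseudogene SNRPD2P2 was left out of the members, and PRP4K, formerly PRPF4B, does not carry the prefix. The members and gene lists were chosen with earlier results of these data known.

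Differences were tested with limma 3.58.1 (lmFit, eBayes; R 4.3.3), two-sided, within each line and as an interaction over all 12 arrays, with Benjamini-Hochberg adjustment over all genes (or all 49293 probe sets) and a threshold of 0.01. The fit was tested on simulated data. Named with full statistics were, per class and line, the 3 called members with the largest change, the 5 largest opposite and 3 largest joint changes, and the 3 widest probe set ranges per line; of the other lists, the 2 largest called genes per line. Other members are named by their values. Alternatives covered the methods' t-test, the gene summary, probe sets that may be shared, 1 fit of all arrays, a robust prior, the threshold, scaling between arrays, the replicate number as a block and leaving out each array. Promoters came from RefSeq (GRCh38.p14), and 7 members had no entry. Arms of chromosome 1 were split by gene position in the same gene table. Python 3.11.15, numpy 2.4.6, pandas 2.3.3, scipy 1.17.1 and matplotlib 3.10.9 were used.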

Additional observations from a re-analysis of the deposited data

Results flagged for a closer look

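Members with full statistics or opposite calls were picked by the size, direction or probe set range of their changes in these same data. That choice favours a called difference between the lines, which over all members was made for 31 of 69, beside 42% of all genes. By the interaction test (limma, adjusted p under 0.01), the HOTAIR effect differed between the lines for 20 of the picked members. The effect in VM-CUB1 minus that in 5637 was positive on the log2 scale for 14 of them. In the hnRNPs these were HNRNPA3 (1.38), HNRNPF (0.66), HNRNPM (0.40) and HNRNPU (0.35), and in the SR proteins SRSF5 (0.96) and SRSF1 (0.56). In the snRNP classes they were SNRPD2 (0.38), SF3A2 (0.88), SF3A1 (0.87), SF3B1 (0.73), SF3A3 (0.48), PRPF6 (1.37), PRPF8 (0.93) and PRPF3 (0.44). The difference was negative for U2SURP (-1.17), HNRNPA2B1 (-0.76), SNRPF (-0.71), PRPF19 (-0.62), HNRNPD (-0.40) and SF3B2 (-0.34). HNRNPU and PRPF3 were lower in both lines and differed in size.

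Signals also appeared in probe sets that the annotation assigns to several genes and that entered no gene value above. The largest belonged to SNRPN and SNURF, which share the imprinted transcript of the Prader-Willi region, SNRPN encoding an Sm protein related to SmB. One of their 3 probe sets read 2.12, 2.09 and 2.26 in VM-CUB1_HOTAIR 20 and -2.39, -2.09 and -2.19 in VM-CUB1_LV. The 3 log2 fold changes of SNRPN and SNURF were 3.21, 4.38 and 4.89 in VM-CUB1 and -0.37, -0.49 and -0.45 in 5637, all called. The neighbouring noncoding gene PWAR6 had 2.02 in VM-CUB1 and -0.66 in 5637, both called, whereas IPW, another noncoding gene of the region, had -0.07 in both lines and was not called. On the other side, MKRN3 was lower in VM-CUB1 (-0.86), and NDN and MAGEL2 were not called in either line (-0.05 and 0.04 in VM-CUB1). UBE3A, past PWAR6, had -0.31 in VM-CUB1.

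U2AF1, the partner of U2AF2 at the 3′ splice site, shares its probe sets with LOC102724594 and was lower in VM-CUB1 (-0.45 and -0.40). HNRNPH2, read together with RPL36A-HNRNPH2, was higher in 5637 by 3 probe sets (0.51, 0.55 and 0.64). Probe sets shared by HNRNPA3 and its pseudogene HNRNPA3P1 had 0.40 (called) and 0.21 (not called, adjusted p = 0.025) in VM-CUB1 and -0.45 and -0.62 in 5637. Those shared by SF3B4 and GARIN2 had -0.40 and -0.35 in 5637 and, not called, -0.35 and -0.28 in VM-CUB1. That of ECH1 and HNRNPL had 0.38 in 5637 (called) and 0.06 in VM-CUB1 (not called). The probe set of BSCL2 and the readthrough HNRNPUL2-BSCL2 had -2.49 in VM-CUB1, where HNRNPUL2 itself was not called (-0.20). Which of the genes gave these signals was not tested.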

How the results depend on the processing

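The counts of called members kept within 1.5 times under every alternative at the 0.01 threshold. At an adjusted p under 0.05, 22 members were higher in VM-CUB1. Without 1 array, the counts ranged from 11 to 14 higher and 13 to 18 lower in VM-CUB1, from 2 to 3 higher and 20 to 25 lower in 5637, and from 26 to 30 for the difference between lines. In every such fit 23 of 32 called members kept their call in VM-CUB1 and 21 of 30 in 5637. The calls lost in at least 1 of these fits were those of HNRNPLL, HNRNPU, PRPF38A, SF3A3, SNRPC, SNRPD1, SRSF1, SRSF2 and SRSF4 in VM-CUB1 (adjusted p up to 0.028) and of HNRNPA1, HNRNPH1, HNRNPUL1, PRPF38B, PRPF4, PRPF8, SF3A3, SRSF1 and SRSF11 in 5637 (up to 0.030), with fewer arrays in each fit. The median of the members in VM-CUB1 lay near 0 and changed sign: it was -0.0765 without probe sets ending in _x_at or _s_at, which left 54 members, and -0.0220 to 0.0163 without 1 array. In 5637 it was -0.1231 after quantile normalization, which moved the median of all genes from -0.0385 to -0.0143. The methods' t-test called 13 higher and 12 lower members in VM-CUB1 and 2 and 22 in 5637. Of 54 results for a named gene in a line, 35 kept their direction and their side of the threshold throughout. Over their alternatives, 38 values were no longer past the threshold and 14 passed it newly. A change of direction was seen in 4 values, all of results not called. HNRNPM in VM-CUB1 (-0.1534) had 0.0846 with the median of probe sets and 0.1091 without probe sets ending in _x_at or _s_at. U2SURP in 5637 (-0.0586) had 0.0183 with the median of probe sets, and HNRNPA2B1 in 5637 (-0.0549) ranged from -0.0991 to 0.0002 without 1 array.

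Same-numbered preparations did not deviate together (correlations -0.045 to -0.003 in VM-CUB1 and -0.030 to 0.083 in 5637), so the replicate numbers were not taken as pairs. With the replicate number as a block, 12 members were higher and 15 lower in VM-CUB1, 3 and 24 in 5637, and 28 differed between the lines; the medians were unchanged at -0.0072 and -0.1516.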
